A study of Mus musculus with 9 samples.

Results

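Fatty acid oxidation and ketone body formation were followed in mouse liver through 34 genes, chosen as the rows of the deposited count table that carry the names of listed enzymes, carriers and thioesterases of these pathways. All 34 names were found among the 43346 rows of the table, and all 34 passed the filter on low counts that left 15024 genes for testing. Of the 34, 20 act in mitochondrial steps and 8 in peroxisomal steps. Acad11 and Eci2 belong to both organelles, Acsl1 and Acot1 were assigned to neither, and the ketone body enzyme Bdh1 and the kinase Pdk4 are not steps of beta-oxidation.

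The livers came from C57/BL6 mice aged 12 weeks that underwent 70% partial hepatectomy, a surgery in which the greater part of the liver is removed and the remnant regrows. They received saline vehicle or NSC-87877 (NSC), an inhibitor of the phosphatases SHP2 and SHP1, at 7.5 mg/kg per dose 2 times daily, from 12 hours before surgery per the labels. The 3 groups used here had 3 libraries each: the resection specimens of vehicle-treated mice at hepatectomy (baseline), the remnants of vehicle-treated mice 40 hours after hepatectomy, and the remnants of NSC-treated mice 40 hours after hepatectomy. All 9 libraries are of whole liver, and the labels name no transgene or deletion. The 40 hour groups share the same baseline libraries, and resection specimens from NSC-treated mice were not analysed here. Whether a resection specimen and a remnant with the same number came from the same mouse is not given, and the p-values measure the spread between these libraries.

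Fatty acids are activated to acyl-CoA at the outer mitochondrial membrane, passed through the carnitine shuttle and shortened in the matrix by a repeating cycle of dehydrogenation, hydration, dehydrogenation and thiolysis. Peroxisomes run a related cycle, with an oxidase in place of the dehydrogenase, on very long, branched or dicarboxylic chains and on bile acid intermediates. In the fasted liver the acetyl-CoA that results is made into ketone bodies, and PPAR alpha, a nuclear receptor for fatty acids, drives many of the genes.

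The libraries held 23997363 to 42887589 counted reads, of which the 34 genes took 0.538% to 0.948%. The lowest count of any of them in any library was 67, for Acot3. The labelled tissue was checked against 9 hepatocyte markers, whose summed level was 140691 to 146965 counts per 1e+06 reads (CPM) at baseline, 126487 to 171197 with vehicle and 122187 to 130995 with NSC at 40 hours. Of those 9 markers, 2 fell and 1 rose with vehicle, and 3 fell and 0 rose with NSC. Of all genes tested, 11.0% fell and 12.7% rose with vehicle, and 16.5% fell and 18.2% rose with NSC. Markers of stellate cells, cholangiocytes and macrophages had summed levels of 147 to 179, 37.8 to 40.6 and 144 to 208 CPM at baseline and of 184 to 329.5, 76.0 to 122 and 141 to 447 CPM at 40 hours. With vehicle 4 of 6, 4 of 5 and 2 of 6 of these markers rose, and with NSC 1, 3 and 4 rose. Of 5 endothelial, 4 neutrophil, 3 lymphocyte and 3 erythroid markers tested, 0 rose with vehicle. With NSC 2 of the neutrophil markers rose and 0 of the others. Of the adipocyte markers 1 was tested, and it fell with each treatment. Adipocyte markers had summed levels of 1.11 to 3.43 CPM at baseline, 0.258 to 0.701 CPM with vehicle and 0.0391 to 0.450 CPM with NSC. With vehicle 1 endothelial marker fell, and 1 erythroid marker fell with each treatment. Their part in the results was not tested. In whole liver, fewer hepatocytes and less RNA per hepatocyte cannot be told apart. Baseline replicate 2 stood apart in clock genes, with Dbp at 81.0 CPM against 0.411 and 1.29 CPM in the other baseline libraries. Leaving baseline replicate 2 out gave 7 in place of 8 of the 34 genes lower with vehicle and 10 in place of 11 lower with NSC. The share of all genes called lower became 8.79% in place of 11.0% with vehicle and 13.8% in place of 16.5% with NSC. Of 16 clock genes, 6 fell with vehicle and 5 with NSC and 0 rose. Their median log2 fold change was -1.424 with vehicle and -1.495 with NSC. Per the paper, surgery was done in small cohorts to keep its timing in the day/night cycle uniform. As 40 hours is not a whole number of days, comparisons with baseline do not separate time of day from time after hepatectomy. The part of time of day and of the clock genes in the results was not tested.

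At baseline, levels per transcript length spanned a wide range. The highest was Acaa2, the last thiolase of the mitochondrial cycle, at 690 ± 20.0 FPKM (fragments per kilobase of gene and per 1e+06 counted reads, ± SD, n = 3), and the lowest was the thioesterase Acot2 at 1.69 ± 0.180 FPKM. The peroxisomal thiolase Acaa1b came second at 429 ± 47.5 FPKM, while its close relative Acaa1a stood at 41.4 ± 9.83 FPKM. Pdk4, which restrains pyruvate oxidation, had the widest spread for its level, 11.8 ± 11.0 FPKM.

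Promoter windows of 250 bases before to 50 after the annotated start were taken from RefSeq (GRCm38.p6) and found for 31 of the 34 genes, with 35 windows in all. The windows were searched on both strands for AGGTCA, the core that nuclear receptors such as PPAR alpha bind, and for the spaced repeat AGGNCANAGGNCA. AGGTCA stood in 7 of the 35 windows (20%), in Cpt1a, Acadvl, Acadm, Echs1, Acot3 and Acot4, against 16.3% of all 32851 windows. The spaced repeat stood in 0 of the 35, against 0.381% of all windows. At so low a share, 0 of 35 was likely for any genes, and sites outside the windows were not searched. Of the 11 genes that fell in either comparison, 1 of those with a window, Acadvl, held AGGTCA. The windows shown are those of the thiolase pair Acaa1b and Acaa1a and of Acad10, which after Acaa1b fell most with NSC, that of Acadvl with its AGGTCA in capitals, and that of Hadhb, of which 228 bases are also the window of Hadha on the opposite strand. The longest stretch that the Acaa1a and Acaa1b windows share is 8 bases.
Acaa1b, chr9:119157044-119157343, minus strand: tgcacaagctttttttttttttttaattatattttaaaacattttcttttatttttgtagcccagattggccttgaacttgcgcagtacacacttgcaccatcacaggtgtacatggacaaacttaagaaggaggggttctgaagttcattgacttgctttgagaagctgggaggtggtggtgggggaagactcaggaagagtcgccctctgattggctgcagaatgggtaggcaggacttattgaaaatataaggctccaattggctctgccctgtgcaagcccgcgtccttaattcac
Acaa1a, chr9:119341044-119341343, plus strand: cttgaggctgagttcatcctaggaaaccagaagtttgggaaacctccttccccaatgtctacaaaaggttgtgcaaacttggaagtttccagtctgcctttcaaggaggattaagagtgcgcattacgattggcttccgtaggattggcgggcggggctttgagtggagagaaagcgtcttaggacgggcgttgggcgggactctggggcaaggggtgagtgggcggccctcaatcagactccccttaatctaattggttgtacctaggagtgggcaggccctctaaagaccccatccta
Acad10, chr5:121660461-121660760, minus strand: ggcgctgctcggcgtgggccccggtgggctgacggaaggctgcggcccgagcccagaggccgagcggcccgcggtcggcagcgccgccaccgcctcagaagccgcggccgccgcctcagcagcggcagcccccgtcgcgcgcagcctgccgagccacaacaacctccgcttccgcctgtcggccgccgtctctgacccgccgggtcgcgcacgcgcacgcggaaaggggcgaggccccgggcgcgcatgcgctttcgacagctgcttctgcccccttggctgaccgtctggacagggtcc
Acadvl, chr11:70015379-70015678, minus strand: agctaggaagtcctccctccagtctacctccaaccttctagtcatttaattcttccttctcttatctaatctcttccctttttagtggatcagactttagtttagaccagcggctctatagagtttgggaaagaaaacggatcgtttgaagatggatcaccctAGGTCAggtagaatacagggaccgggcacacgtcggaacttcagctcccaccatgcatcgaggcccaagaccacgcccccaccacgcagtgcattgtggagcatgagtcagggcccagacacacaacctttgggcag
Hadhb, chr5:30155003-30155302, plus strand: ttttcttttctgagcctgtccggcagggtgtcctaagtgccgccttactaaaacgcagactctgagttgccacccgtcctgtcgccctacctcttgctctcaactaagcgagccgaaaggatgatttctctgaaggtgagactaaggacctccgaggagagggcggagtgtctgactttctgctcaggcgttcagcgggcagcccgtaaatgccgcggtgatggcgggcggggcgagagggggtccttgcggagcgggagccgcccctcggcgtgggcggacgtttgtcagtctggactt

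At 40 hours after hepatectomy, 8 of the 34 genes were lower in the vehicle-treated remnants than at baseline and 0 were higher at an adjusted p under 0.05: the acyl-CoA synthetase Acsl1, the dehydrogenases Acads, Acadsb and Acad10, the isomerase Eci1, and the peroxisomal Acaa1a, Acaa1b and Decr2. With NSC the same 8 fell, joined by Acadvl, Acaa2 and Acox2, and 0 rose. The largest change in both was that of Acaa1b, which was 7.32-fold lower with vehicle and 5.13-fold lower with NSC. The 23 other genes passed in neither comparison.

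The 8 genes lower with vehicle are 23.5% of the 34, against 11.0% of all genes tested that were called lower, and 0 were higher, against 12.7% of all genes. The 11 lower with NSC are 32.4% of the 34, against 16.5% called lower and 18.2% called higher among all genes. The median log2 fold change of the 34 was -0.44 with vehicle and -0.36 with NSC, while that of all genes was 0.01 in each comparison. The fold change was negative for 29 of the 34 with vehicle and for 28 with NSC. With an added requirement of a log2 fold change under -1.5, Acsl1 and Acaa1b remained for vehicle, where 2.19% of all genes met it, and Acad10 and Acaa1b for NSC, where 2.75% did. The tests were edgeR quasi-likelihood tests with Benjamini-Hochberg adjustment over all 15024 genes. Without NSC replicate 1, which enters the shared estimate of the spread, 15 of the 34 were lower with vehicle, against 13.7% of all genes. Without baseline replicate 3 or without NSC replicate 2, 7 were lower with NSC, against 11.4% and 12.0% of all genes.

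**Figure D1:**
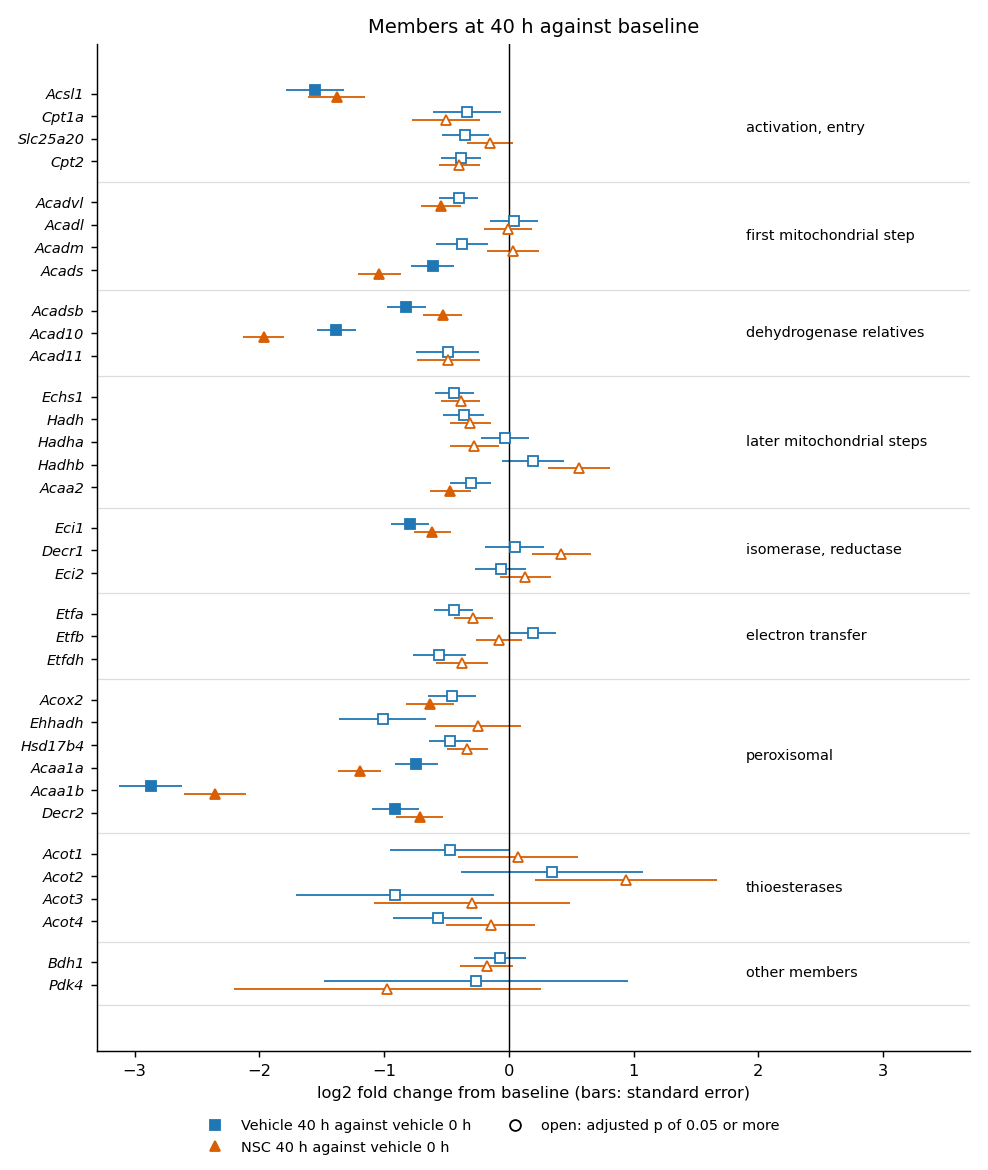
Log2 fold change of each of the 34 genes at 40 hours against baseline (horizontal axis) with its standard error, for vehicle (squares) and NSC (triangles), grouped by role, with filled symbols for adjusted p under 0.05. Acaa1b lies farthest to the left at -2.87 and -2.36, and every filled symbol lies left of 0.

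Among the peroxisomal enzymes the thiolase Acaa1b, which cleaves the shortened chain, fell most. Acaa1b (ENSMUSG00000010651, GRCm38 chr9:119148023-119157093) was at 864, 784 and 969 CPM in the baseline libraries, 136, 136 and 85.2 CPM with vehicle and 146, 135 and 229 CPM with NSC at 40 hours. The lowest baseline library was above every remnant. The log2 fold change was -2.87 ± 0.25 (SE) with vehicle and -2.36 ± 0.25 with NSC, with adjusted p from edgeR of 4.12e-05 and 7.59e-05. Acaa1a (ENSMUSG00000036138, GRCm38 chr9:119339676-119350299) was at 148, 237 and 182 CPM at baseline, 117, 105 and 117 CPM with vehicle and 79.9, 84.5 and 83.6 CPM with NSC. Its 3 groups did not overlap, with NSC lowest, and it fell by 0.74 ± 0.17 with vehicle and by 1.19 ± 0.17 with NSC on the log2 scale. Of the 100-base windows of the longest transcript, 22.6% of those of Acaa1b and 9.75% of those of Acaa1a also occur in the other gene, so the split of counts between them is uncertain.

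Decr2, the peroxisomal dienoyl-CoA reductase needed for polyunsaturated chains, was at 174, 207 and 152 CPM at baseline, 100.2, 93.3 and 89.7 CPM with vehicle and 139, 96.6 and 88.8 CPM with NSC. All 6 remnants lay below the 3 baseline libraries, and the log2 fold changes were -0.91 ± 0.19 and -0.71 ± 0.19, the latter with an adjusted p of 0.0553 without NSC replicate 2. Acox2, the oxidase for branched chains and bile acid intermediates, was at 273, 327 and 299.7 CPM at baseline, 217, 258 and 179.9 CPM with vehicle and 148, 208 and 223 CPM with NSC. All 6 remnants were below the baseline range, but only the comparison with NSC passed. The log2 fold change was -0.63 ± 0.19 with NSC (edgeR adjusted p = 0.024) and -0.46 ± 0.19 with vehicle (0.105). The adjusted p with NSC was 0.0714, 0.0677 and 0.0631 without baseline replicate 2, baseline replicate 3 and NSC replicate 1 in turn. With scaling by library size only it was 0.0534.

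The bifunctional enzymes hydrate and dehydrogenate the chain. Ehhadh, which prefers straight and dicarboxylic chains, was at 333, 277 and 279.6 CPM at baseline, 186, 135 and 120.0 CPM with vehicle and 423, 165 and 161 CPM with NSC. The vehicle remnants were all below baseline, and with NSC replicate 1 was the highest of the 9 libraries while the other 2 were below baseline. The log2 fold changes of -1.01 ± 0.35 with vehicle and -0.25 ± 0.35 with NSC had edgeR adjusted p of 0.0615 and 0.61. Without NSC replicate 1 or with replicate 1 of both 40 hour groups left out, Ehhadh passed in both comparisons, and over all alternatives the vehicle value had adjusted p from 3.09e-05 to 0.181. Hsd17b4, its counterpart for branched chains, was at 497, 435 and 484 CPM at baseline, 369, 299.8 and 352 CPM with vehicle and 436, 326 and 362 CPM with NSC, with log2 fold changes of -0.47 ± 0.17 and -0.33 ± 0.17 that did not pass. With vehicle Hsd17b4 was below baseline without overlap and passed in 6 of 18 alternatives.

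Among the genes that bring fatty acids to the matrix, Acsl1 (ENSMUSG00000018796, GRCm38 chr8:46471041-46536051), which activates long chains to acyl-CoA, changed most. It was at 1083, 712 and 986 CPM at baseline, 349.5, 346 and 253 CPM with vehicle and 458, 296 and 315 CPM with NSC. Every remnant was below every baseline library, and Acsl1 was 2.93-fold lower with vehicle and 2.60-fold lower with NSC (log2 fold change -1.55 ± 0.23 and -1.38 ± 0.23, edgeR adjusted p = 0.000813 and 0.001). Cpt1a, the carnitine palmitoyltransferase that sets the rate of entry, was at 324, 425 and 288 CPM at baseline, 338, 277 and 208 CPM with vehicle and 346, 215 and 169 CPM with NSC. The Cpt1a groups overlapped, and its values of -0.33 ± 0.27 and -0.51 ± 0.27 did not pass. Without NSC replicate 1 its value with NSC was -0.85 and passed (edgeR adjusted p = 0.0143), and over all alternatives the vehicle value ran from -0.51 to -0.16, the latter without baseline replicate 2, and did not pass. The translocase Slc25a20 and the inner-membrane transferase Cpt2 lay between -0.40 and -0.15 in the same comparisons and did not pass either.

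The acyl-CoA dehydrogenases open each cycle and are named for the chain length they accept. Acads, for short chains, was at 172, 193 and 211 CPM at baseline, 149.6, 124 and 104 CPM with vehicle and 84.8, 88.4 and 107 CPM with NSC. It fell by 0.61 ± 0.17 with vehicle and by 1.04 ± 0.17 with NSC on the log2 scale, and all 6 remnants were below the lowest baseline library. With vehicle its adjusted p was 0.0224, and 0.0504 to 0.0959 when baseline replicate 2 or 3 or vehicle replicate 2 or 3 was left out. Acadvl, for very long chains, was at 592, 559.5 and 585 CPM at baseline, 487, 411 and 416 CPM with vehicle and 447, 354 and 390.3 CPM with NSC. The groups did not overlap in either comparison, but only the NSC value passed (-0.54 ± 0.16, edgeR adjusted p = 0.0188, against -0.40 ± 0.16 and 0.0825 with vehicle). It did not pass without baseline replicate 1 (adjusted p = 0.0589), baseline replicate 3 (0.0688) or NSC replicate 2 (0.0831). With scaling by library size only its edgeR adjusted p was 0.107.

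Acadm, for medium chains, was at 418, 362 and 387 CPM at baseline, 386, 230.1 and 284 CPM with vehicle and 477, 330.0 and 385 CPM with NSC, and Acadl, for long chains, was at 177, 167 and 164 CPM at baseline, 207, 148 and 166 CPM with vehicle and 218, 147 and 141 CPM with NSC. For both the remnants overlapped the baseline range, and no comparison passed. The interval of the log2 fold change was -0.83 to 0.08 with vehicle and -0.42 to 0.48 with NSC for Acadm, and -0.38 to 0.46 and -0.42 to 0.41 for Acadl (95% confidence).

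The relatives of these dehydrogenases included the gene with the largest drop among the mitochondrial steps. Acad10 (ENSMUSG00000029456, GRCm38 chr5:121621026-121660514) was at 33.9, 42.2 and 41.8 CPM at baseline, 16.5, 15.2 and 13.4 CPM with vehicle and 11.4, 8.73 and 10.1 CPM with NSC, 3 groups that did not overlap. It was 2.61-fold lower with vehicle and 3.91-fold lower with NSC (log2 fold change -1.38 ± 0.16 and -1.97 ± 0.16, edgeR adjusted p = 0.00017 and 1.82e-05). Of its 100-base transcript windows, 7.98% also occur in the neighbour Acad12, which was at 4.55, 7.18 and 7.09 CPM at baseline, 6.73, 4.95 and 3.17 CPM with vehicle and 5.01, 2.61 and 3.52 CPM with NSC. Acadsb, which acts on branched short chains from isoleucine, was at 155, 123 and 143 CPM at baseline, 71.5, 71.6 and 95.3 CPM with vehicle and 92.5, 98.8 and 100.3 CPM with NSC. It fell by 0.82 ± 0.16 and by 0.53 ± 0.16 on the log2 scale without overlap. The NSC value did not pass without baseline replicate 1 (adjusted p = 0.0824), baseline replicate 3 (0.0706) or NSC replicate 2 (0.0587). With scaling by library size only its edgeR adjusted p was 0.086. Acad11, found in both organelles, had -0.49 ± 0.25 and -0.48 ± 0.25 and did not pass.

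Of the 5 later mitochondrial steps, 0 passed with vehicle and 1, Acaa2, passed with NSC. Of all genes, 11.0% were called lower with vehicle and 16.5% with NSC. Acaa2 was at 1054, 1091 and 1103 CPM at baseline, 951, 815 and 861 CPM with vehicle and 735, 707 and 906 CPM with NSC, and the remnants were all below baseline. Its value with NSC (-0.47 ± 0.16, edgeR adjusted p = 0.0438) was the least stable of the calls, as it did not pass in 12 of 18 alternatives, with adjusted p from 0.00621 to 0.18. Those 12 included leaving out any 1 of baseline replicates 1, 2 and 3, vehicle replicates 1 and 3 and NSC replicates 1 and 2. The hydratase Echs1 (-0.44 ± 0.16 and -0.39 ± 0.16) and the hydroxyacyl dehydrogenase Hadh (-0.36 ± 0.16 and -0.31 ± 0.16) were lower without overlap in both comparisons and did not pass. Of the 18 alternatives, Echs1 passed in 5 with vehicle and in 2 with NSC.

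Hadha and Hadhb encode the alpha and beta subunits of the trifunctional protein for long chains, and their promoter windows overlap on opposite strands, as shown with the Hadhb window. Hadha was at 364, 325 and 345 CPM at baseline, 431, 289 and 292 CPM with vehicle and 344, 256 and 252 CPM with NSC. Hadhb was at 121, 104 and 104 CPM at baseline, 154, 89.0 and 134 CPM with vehicle and 226, 120.4 and 139 CPM with NSC. Both overlapped baseline with each treatment, and in each 40 hour group replicate 1 was the highest for both genes. With NSC the log2 fold change was -0.28 ± 0.20 for Hadha and 0.56 ± 0.25 for Hadhb, with edgeR adjusted p of 0.29 and 0.101. The difference between the subunits was not tested.

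The auxiliary enzymes handle double bonds. The isomerase Eci1 was at 112, 112 and 115 CPM at baseline, 71.0, 58.0 and 66.6 CPM with vehicle and 82.7, 60.6 and 78.3 CPM with NSC, and all 6 remnants lay below the tight baseline range. It fell by 0.79 ± 0.15 and by 0.61 ± 0.15 on the log2 scale, with edgeR adjusted p of 0.00316 and 0.00816. With scaling by library size only the latter was 0.0592. The reductase Decr1, at 195, 171 and 161 CPM at baseline, 239.9, 121 and 183 CPM with vehicle and 287, 185 and 232 CPM with NSC, and Eci2, at 208, 196 and 145 CPM at baseline, 199, 139 and 187 CPM with vehicle and 242, 164 and 195 CPM with NSC, overlapped baseline and did not pass. The electron transfer genes Etfa, Etfb and Etfdh, which carry electrons from the dehydrogenases to the respiratory chain, did not pass either. Etfa and Etfdh had -0.44 ± 0.16 and -0.56 ± 0.21 with vehicle and -0.29 ± 0.16 and -0.38 ± 0.21 with NSC, while Etfb had 0.19 ± 0.18 and -0.08 ± 0.18. Of 18 alternatives, Etfa passed in 5 with vehicle, and Etfdh in 6 with vehicle and 2 with NSC. Of the Etfb transcript windows 65.2% also occur in the annotated gene Gm45233, so its level is uncertain.

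The thioesterases, which release free fatty acid and CoA, and Pdk4 had the largest standard errors of the 34, and 0 of them passed. With vehicle Acot3 and Acot4 passed in a fit of the compared groups only (edgeR adjusted p = 0.0377 and 0.0325) and in the exact test of edgeR (0.0111 and 0.0236), and both passed with vehicle and with NSC without NSC replicate 1. Acot1, the cytosolic form, was at 28.1, 13.9 and 23.7 CPM at baseline, 28.5, 9.02 and 9.78 CPM with vehicle and 28.5, 15.8 and 24.9 CPM with NSC. Acot2, the mitochondrial form, was at 3.44, 4.24 and 3.83 CPM at baseline, 9.51, 2.41 and 2.66 CPM with vehicle and 15.1, 2.75 and 4.15 CPM with NSC. In each 40 hour group replicate 1 stood above the other 2 libraries for both. The peroxisomal Acot3 was at 10.8, 12.8 and 10.9 CPM at baseline, 8.81, 5.86 and 3.62 CPM with vehicle and 22.0, 2.28 and 3.68 CPM with NSC, and Acot4 at 26.8, 29.1 and 25.1 CPM at baseline, 23.4, 15.2 and 15.9 CPM with vehicle and 41.3, 14.5 and 17.3 CPM with NSC. Both were below baseline in every vehicle remnant, and with NSC replicate 1 was above baseline and the other 2 were below it. Acot1, Acot2 and Acot3 share 12.5%, 17.1% and 14.3% of their transcript windows with other genes of the Acot family or with Gm49366.

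Pdk4 was at 85.0, 5.10 and 38.9 CPM at baseline, 74.9, 17.5 and 14.8 CPM with vehicle and 50.6, 6.62 and 8.26 CPM with NSC. Its lowest and highest values in all 9 libraries were both at baseline, and the standard errors of its log2 fold changes were 1.22 and 1.23. Bdh1, which interconverts acetoacetate and beta-hydroxybutyrate, was at 173, 205 and 179.8 CPM at baseline, 233, 141 and 156 CPM with vehicle and 198, 134 and 159.8 CPM with NSC. Its groups overlapped, and its log2 fold changes of -0.07 ± 0.21 and -0.18 ± 0.21 did not pass.

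Fold changes were further below 0 in the peroxisomal than in the mitochondrial steps of the vehicle-treated remnants. With vehicle, the median log2 fold change was -0.83 over the 8 peroxisomal genes and -0.37 over the 20 mitochondrial genes, 3 of 8 and 4 of 20 passed, and all 8 peroxisomal genes but 10 of 20 mitochondrial genes were below baseline without overlap, against 22.0% of all genes. With NSC the medians were -0.48 and -0.34, 4 of 8 and 6 of 20 passed, and 4 of 8 and 10 of 20 did not overlap, against 23.1% of all genes. Among all genes, 11.0% were called lower with vehicle and 16.5% with NSC. In the wider list followed below, the order of the organelles was the other way. With vehicle its median was -0.63 over 16 other peroxisomal and -0.70 over 12 other mitochondrial genes. With NSC these medians were -0.57 and -0.66, so the contrast is one of the chosen genes.

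Within each library the median of log2 CPM minus the baseline mean was compared between the organelles. The peroxisomal median minus the mitochondrial median was -0.06, 0.15 and -0.05 at baseline, -0.39, -0.32 and -0.43 with vehicle and 0.00, -0.43 and -0.67 with NSC. All 3 vehicle remnants were below all baseline libraries, and NSC replicate 1 lay inside the baseline range while the other 2 NSC remnants did not. These are descriptions of chosen lists and carry no test. The NSC peroxisomal median was -0.90 without NSC replicate 1 and -0.67 without the thioesterases.

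**Figure D2:**
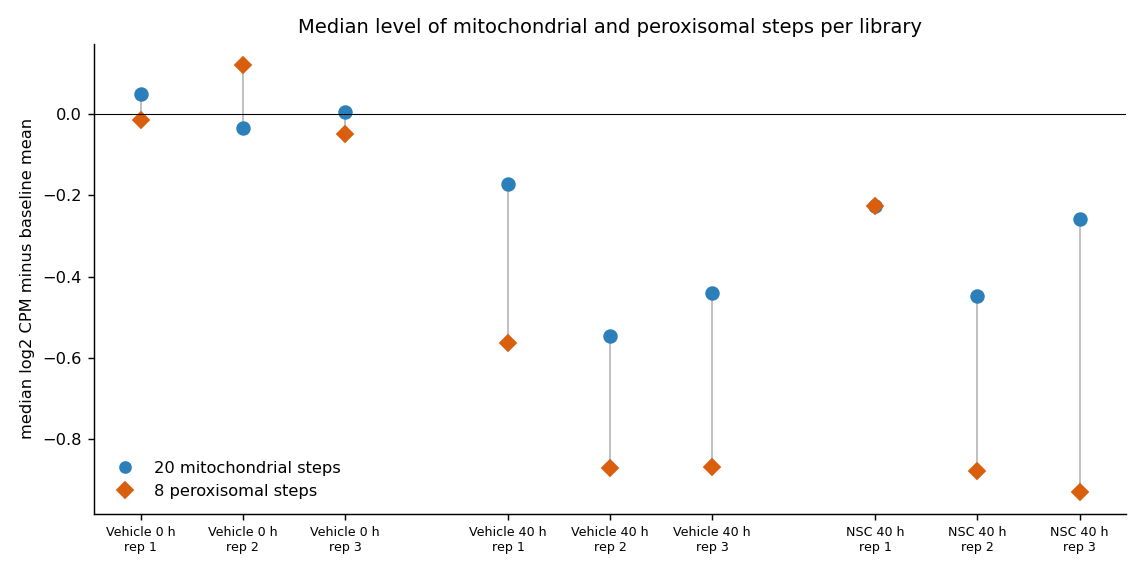
Median log2 CPM minus the baseline mean (vertical axis) over 20 mitochondrial steps (circles) and 8 peroxisomal steps (diamonds) in each of the 9 libraries, with a line joining the medians of 1 library. The diamonds sit below the circles in all 3 vehicle remnants and in NSC replicates 2 and 3, and the symbols coincide in NSC replicate 1.

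Whether NSC shifted fatty acid oxidation genes at 40 hours was asked by comparing NSC with vehicle directly. Of the 34, 0 passed, against 0.0399% of all genes (6 genes) called lower and 0% called higher. At an unadjusted p under 0.05 there were 3 of the 34, Acads, Acad10 and Acaa1a, all with lower values with NSC, against 19.5% of all genes in either direction. Their log2 fold changes were -0.43 ± 0.17, -0.58 ± 0.16 and -0.45 ± 0.17, with edgeR adjusted p of 0.203, 0.102 and 0.187. Acad10 and Acaa1a were the 2 genes whose NSC and vehicle libraries did not overlap, both lower with NSC, while 12.2% of all genes were lower with NSC without overlap. With DESeq2 1 gene passed, Acad10 (adjusted p = 0.0416), as it did without NSC replicate 1 (0.0318), settings that called 5.03% and 6.46% of all genes, and over all 18 alternatives its adjusted p ran from 0.0318 to 0.351.

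Misses of the threshold do not show equal levels. The 95% interval of the log2 difference lay within 1 on either side of 0 for 27 of the 34 genes. It was -0.01 to 1.54 for Ehhadh and -0.0045 to 1.03 for Acaa1b, whose values were higher with NSC, and -1.07 to 2.26 for Acot2 and -3.63 to 2.21 for Pdk4. The median difference was 0.05 over the mitochondrial steps and 0.31 over the peroxisomal steps, and without NSC replicate 1 these became -0.06 and -0.02.

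**Figure D3:**
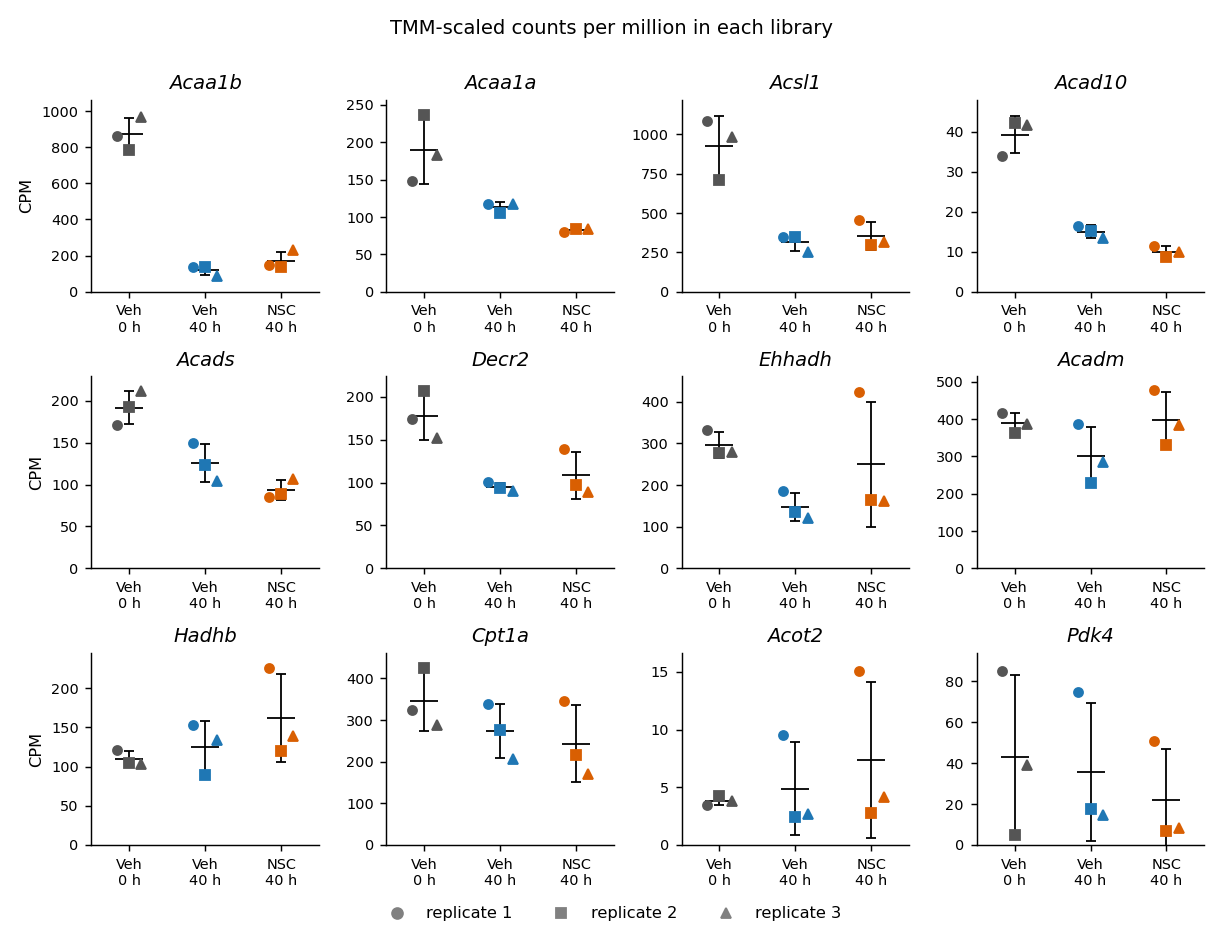
CPM (vertical axis, from 0) of 12 of the 34 genes in each library of the 3 groups, with symbols for replicates 1 to 3, horizontal ticks for the mean and bars for the SD (drawn down to 0 only). Acaa1b, Acaa1a, Acsl1, Acad10, Acads and Decr2 have all remnants below all baseline libraries, and Ehhadh, Acadm, Acot2 and Hadhb have NSC replicate 1 above the rest.

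At 40 hours most of these genes were highest in the libraries labelled replicate 1. Within the vehicle group 27 of the 34 were highest there, and within the NSC group 25 were, against 28.0% and 37.0% of all genes. At baseline replicate 1 was highest for 17 of the 34, against 33.0% of all genes. The same 25 genes, 73.5%, were highest in replicate 1 of both 40 hour groups, against 11.9% of all genes tested. They included 14 of the 20 mitochondrial and 5 of the 8 peroxisomal steps. Replicate 1 exceeded the mean of the other 2 libraries by 3.75-fold with vehicle and 4.38-fold with NSC for Acot2, by 4.64-fold and 6.81-fold for Pdk4, and by 1.46-fold and 2.59-fold for Ehhadh. Acads, Acadsb, Echs1, Acaa2, Etfa, Etfb, Acox2, Acaa1a and Acaa1b, the other 9 genes, were not highest there in both.

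Of the 12 other PPAR alpha targets listed, 10 were highest in replicate 1 of the vehicle group and 12 in that of the NSC group. Cyp4a14, one of the 12, and Fgf21, listed here among the regulators, are shown as examples chosen after their values were seen. Fgf21, a hormone that the fasted liver secretes, was at 1.01, 0.275 and 0.264 CPM at baseline, 10.8, 0.57 and 0.775 CPM with vehicle and 35.2, 0.374 and 0.117 CPM with NSC. Its value in NSC replicate 3 lay at the level of 3 counts in that library. Cyp4a14, a fatty acid hydroxylase, was at 1044, 403 and 674 CPM at baseline, 985, 329.8 and 468 CPM with vehicle and 1979, 234 and 190.4 CPM with NSC. In both groups replicate 1 was highest for each. What replicate 1 of the 40 hour groups shared is not given by the labels, and its part in the results was not tested. With both libraries left out, 17 of the 34 genes were lower with vehicle and 14 with NSC, against 10.2% and 15.1% of all genes, and Ehhadh, Acad11, Etfdh, Acot3 and Acot4 passed in both comparisons.

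**Figure D4:**
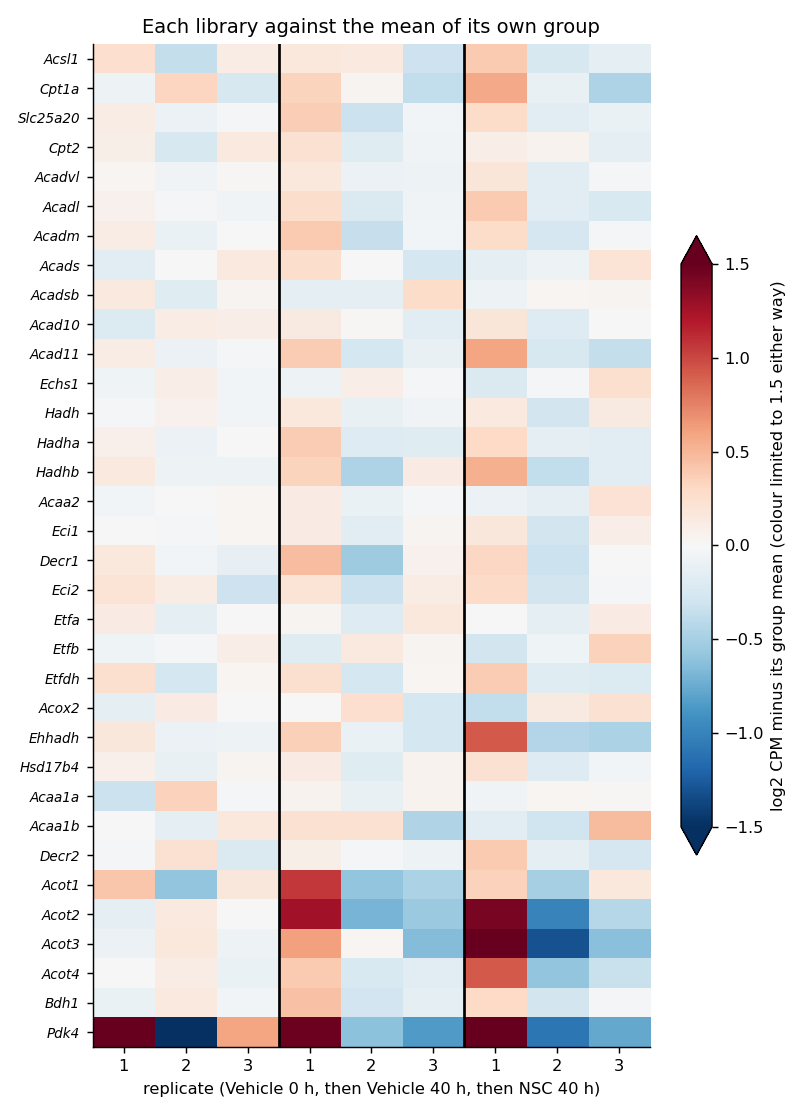
Log2 CPM minus the mean of the library's own group (colour, red above and blue below) for the 34 genes (rows, by role) in the 9 libraries (columns, 3 per group). Red fills most rows in replicate 1 of the vehicle and NSC groups at 40 hours, where 25 genes were highest in both. In these libraries it is strongest for Pdk4, Acot2 and Acot1 with vehicle and for Acot3, Pdk4 and Acot2 with NSC.

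The wider pathway was followed through a further list of 84 tested rows. With vehicle 38 fell and 8 rose, and with NSC 36 fell and 8 rose, against 11.0% and 12.7%, and 16.5% and 18.2%, of all genes. Between NSC and vehicle 0 passed, and 11 of the 84 had an unadjusted p under 0.05, against 19.5% of all genes. The other peroxisomal genes had 10 of 16 lower with vehicle and 7 with NSC, and the other mitochondrial genes 8 of 12 and 6 of 12. Among 10 regulators 5 fell with vehicle and 7 with NSC, among them the mitochondrial deacetylase Sirt3 at 111, 113 and 113 CPM at baseline, 44.4, 49.4 and 49.6 CPM with vehicle and 39.8, 41.3 and 60.7 CPM with NSC. Of 12 other PPAR alpha targets 1 fell and 2 rose in each comparison.

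With vehicle, the smallest p-values in that list were those of the medium-chain synthetase Acsm5 (-1.23 ± 0.15), Sirt3 (-1.23 ± 0.17), Bdh2, Oxct1 and the pyruvate dehydrogenase kinase Pdk1 (-2.02 ± 0.28). With NSC they included those of the kinase Pdk2 (-2.02 ± 0.22), the propionyl-CoA carboxylase subunit Pccb (-1.17 ± 0.13), Sirt3 (-1.25 ± 0.17), the malonyl-CoA decarboxylase Mlycd (-1.01 ± 0.14) and Acsm5 (-1.10 ± 0.15). Adjusted p from edgeR ran from 0.000276 to 0.000909 for vehicle and from 0.000103 to 0.000329 for these genes with NSC. Pdk2 was at 76.8, 124 and 91.1 CPM at baseline, 31.0, 46.3 and 32.7 CPM with vehicle and 23.4, 19.9 and 28.9 CPM with NSC, with all remnants below baseline.

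Of the 10 ketone body rows 4 fell and 2, Oxct1 and Slc16a1, rose in each comparison with baseline. The thiolase Acat1 fell with vehicle (-0.72 ± 0.21) but did not pass with NSC (-0.45 ± 0.21). Oxct1, which breaks ketone bodies down and is scarce in liver, was at 3.06, 2.60 and 2.87 CPM at baseline, 6.38, 8.47 and 9.08 CPM with vehicle and 9.42, 6.52 and 7.55 CPM with NSC. It rose without overlap in both comparisons (1.49 ± 0.22 and 1.46 ± 0.22).

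Slc16a1, a carrier of lactate and ketone bodies, was at 45.8, 19.8 and 41.0 CPM at baseline, 124, 87.5 and 109 CPM with vehicle and 127, 136 and 105 CPM with NSC, and rose with vehicle (1.59 ± 0.27) and with NSC (1.79 ± 0.28). The related carriers Slc16a6 (1.08 ± 0.40 and 0.98 ± 0.40) and Slc16a7 (0.11 ± 0.33 and 0.33 ± 0.33) did not pass. Aacs, which uses acetoacetate for lipid synthesis, was at 22.9, 129.7 and 75.6 CPM at baseline, 25.3, 54.1 and 43.0 CPM with vehicle and 14.5, 20.3 and 16.2 CPM with NSC, and fell with NSC (-2.16 ± 0.59) but did not pass with vehicle (-0.90 ± 0.57). Bdh2 occurs as 2 rows, at 21.1, 15.9 and 20.4 CPM at baseline, 4.45, 3.99 and 5.06 CPM with vehicle and 4.65, 10.5 and 12.6 CPM with NSC in the more abundant row, and both rows fell with vehicle and with NSC. Of the 10 ketone body rows, 0 differed between NSC and vehicle at an adjusted p under 0.05.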

How the data were processed

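Whole-liver RNA was sequenced as stranded, poly(A)-selected, paired-end libraries (TruSeq). Per the labels and the study's methods, the authors aligned reads with STAR 2.6.1 and counted them per gene with featureCounts of Subread 1.5.1, and deposited raw gene counts and FPKM values. The labels name the human build hg38, while identifiers and positions in the table are of mouse GRCm38. FPKM values above 1 were recomputed from the counts, with 1 base added to the listed gene length, with a relative difference of at most 4.96e-10.

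From the deposited counts, edgeR 4.0.16 (R 4.3.3) was used with TMM scaling, filterByExpr and a quasi-likelihood fit of all 9 libraries with group as the only term, and p-values were adjusted by Benjamini-Hochberg over 15024 genes. The study names edgeR but not the test. CPM values are TMM-scaled, with a floor of 3 counts of 0.0751 to 0.117 CPM, which covers counting error only. Standard errors and 95% intervals come from the quasi-likelihood F statistic and its degrees of freedom. The count test was tested on simulated data. Sequences and annotation were read with Python 3.11.15. Alternatives were other scalings and filters, fits of the compared groups only, a replicate block, DESeq2 1.42.0, the exact test, stricter thresholds and leaving out each library, and leaving out replicate 1 of both 40 hour groups was added after the data were seen. The genes and lists were chosen with earlier results of these data known. All 34 genes were named, as were, per comparison, up to 6 genes of the wider list with the smallest adjusted p and its ketone body genes, of which some are not reported here. Tmlhe and the macrophage marker Adgre1 were listed but not used here.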

Additional observations from a re-analysis of the deposited data

How the results depend on the processing

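Over 18 alternatives and 3 comparisons, 32 of 342 calls on single genes were lost and 0 changed direction, while 63 of 1494 values without a call gained one and 77 of the 1494 changed sign. Acsl1, Acad10, Acaa1a and Acaa1b passed against baseline under every alternative fit with both treatments. The number of genes lower with vehicle, 8, became 15 with the compared groups only (14.1% of all genes, against 11.0%). It became 14 with DESeq2 (13.8%) and 14 with the exact test (15.2%). With the fold threshold it was 2 (2.19%), and without replicate 1 of both 40 hour groups 17 (10.2%). As each library was left out it ran from 7 to 15, and the share of all genes from 6.77% to 13.7%. The number lower with NSC, 11, became 6 with scaling by library size only (11.9% of all genes, against 16.5%). It became 2 with the fold threshold (2.75%) and 6 at an adjusted p under 0.01 (9.54%). As each library was left out it ran from 7 to 15, and the share of all genes from 11.4% to 16.1%. The number that differed between NSC and vehicle, 0, became 1 with DESeq2 (5.03% of all genes, against 0.0399%). As each library was left out it ran from 0 to 1, and the share of all genes from 0% to 6.46%. The median over the mitochondrial steps with NSC, -0.34, became -0.20 with scaling by library size only, which moved the median of all genes by 0.14 (NSC against baseline) and 0.13 (NSC against vehicle). The median over the peroxisomal steps with NSC, -0.48, became -0.90 without replicate 1 of both 40 hour groups and ran from -0.90 to -0.44 as each library was left out. Between NSC and vehicle the medians ran from -0.06 to 0.13 over the mitochondrial and from -0.02 to 0.46 over the peroxisomal steps as each library was left out, and reversed without NSC replicate 1 (-0.055 and -0.0248). Whether the numbers pair the libraries is not given. Same-numbered libraries had correlations of their deviations from -0.05 to 0.13 over all genes, and in 13 of 18 cases a library correlated best with its own number in another group. With a replicate block 12 genes were lower with vehicle, 12 were lower and 1 higher (Hadhb) with NSC and 0 differed between treatments. The shares of all genes in these fits were 11.2%, 16.7%, 17.7% and 0.0732%. The cause of these shifts was not tested. At this depth the lowest count among the 34 genes was 67.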
